A study of Mus musculus with 11 samples.

Results

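Hair cells (HCs) of the cochlea hand sound on to the auditory nerve through ribbon synapses, and 10 genes of this synapse were followed here: Otof, Slc17a8, Ctbp2, Bsn, Pclo, Rims2, Cacna1d, Cacnb2, Cabp2 and Nefl. They were chosen by name, and their values were followed in inner hair cells (IHCs) and outer hair cells (OHCs), with non-hair cells as background. The cells came from the dissociated floor of the cochlear duct of wild-type CD1 mice, with no treatment, on embryonic days 14 and 16 (E14, E16) and postnatal days 1 and 7 (P1, P7). Of the 11 droplet libraries 2 were from E14, 3 from E16, 4 from P1 and 2 from P7; they were separate collections, and each pooled cochleae of several animals of either sex, so that the libraries, not cells, were the replicates. All 10 genes were among the 19541 genes that the E16, P1 and P7 tables share, and 8 of them were in the E14 table, which lists neither Slc17a8 nor Cabp2.

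At a ribbon synapse, an electron-dense ribbon built from Ribeye, a product of the Ctbp2 gene, tethers glutamate-filled vesicles at the active zone. Voltage-gated calcium channels beneath the ribbon open with the receptor potential, and otoferlin, a large calcium-binding protein with C2 domains, is needed for the vesicles to fuse. IHCs carry most of the afferent signal to the spiral ganglion, while OHCs mainly amplify vibration and have few afferent contacts. Loss of otoferlin, of the vesicular glutamate transporter VGLUT3 (Slc17a8) or of the channel subunit Cav1.3 (Cacna1d) is a known cause of deafness in which the synapse fails.

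No cell type was given with the cells, so HCs were recognised by 18 marker genes that include no member of the set, such as Pou4f3, Myo7a and Pvalb. Cells with 6 or more of these genes detected were taken as HCs, and cells with 3 or fewer as non-hair cells. The median was 11, 16 and 14 markers in HCs at E16, P1 and P7 and of 0, 1 and 0 in non-hair cells, and 48, 200 and 22 cells with 4 or 5 markers were left out. IHCs were recognised by 5 genes (among them Fgf8 and Tbx2), of which a cell had to hold at least 2 UMIs, and OHCs by 12 (among them Insm1, Neurod6, Ikzf2 and Ocm), of which at least 1 had to be detected beside at most 1 UMI of the IHC genes. Either type also had to show more genes of its own list than of the other. Of the IHC and OHC genes, 4 and 11 were listed in the E16 data, 5 and 12 at P1 and 5 and 11 at P7, so the gates differed slightly between ages. The E16 gates held 99 IHCs and 275 OHCs, the P1 gates 172 and 830, and the P7 gates 79 and 179, with 21 to 52 IHCs and 46 to 362 OHCs in a library. A further 208, 65 and 8 HCs fitted neither type. Median UMIs (unique molecular identifiers, each a captured transcript) per cell were 3754, 7614.5 and 7624 in IHCs of the 3 later ages, 3674, 6622 and 6862 in OHCs, and 2672, 4799 and 4531 in non-hair cells. These gates hold down the markers of one type in the other, so low marker sums are no separate check of the types. OHC marker RNA still summed to 721 and 753 counts per 1000000 UMIs (CPM) in P7 IHCs against 13721 and 14724 in OHCs. At E16 it summed to 582 to 967 CPM in OHCs, 50.4 to 117 in IHCs and 173 to 224 in non-hair cells. The median E16 OHC had 1 of these genes detected. At P1 the sums were 753 to 978, 109 to 175 and 189 to 278 CPM. OHCs were thus less sharply marked at E16 and P1 than at P7. Supporting cell markers summed to 229 to 739 CPM in IHCs and 268 to 611 in OHCs at E16, against 455 to 549 in non-hair cells, and haemoglobin transcripts reached 2757 CPM in the OHCs of 1 E16 library and 9.45 CPM in the lowest. Their part in the values below was not tested.

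Positions are those of the GENCODE M21 annotation of the mouse build GRCm38, the same assembly as the mm10 used by the authors. Otof is at chr5:30367062-30461932 on the minus strand, Slc17a8 at chr10:89574020-89621253 on the minus strand and Cabp2 at chr19:4081578-4087340 on the plus strand. Ctbp2 spans chr7:132987563-133124354 on the minus strand. Its annotated transcript Ctbp2-201 starts at 133123367 and codes for 445 amino acids, while Ctbp2-214, the Ribeye form, starts inside the gene at 133015248 and codes for 988. They end close together, at 132987621 and 132987578. The droplet method counts the 3′ ends of transcripts, so Ribeye and the widely expressed co-repressor CtBP2 give the same counts, and every Ctbp2 value below is the sum of both. Cacna1d lies at chr14:30039939-30491455 (minus strand), Cacnb2 at chr2:14603088-14987908 (plus), Nefl at chr14:68083863-68089095 (plus), Bsn at chr9:108096022-108190384 (minus), Pclo at chr5:14514918-14863459 (plus) and Rims2 at chr15:39198261-39684372 (plus).

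Start regions of 3 members are shown: the Ribeye start of Ctbp2, because it cannot be told from the other start in these counts, and starts of Slc17a8 and Cabp2, because these genes were low in OHCs at E16 and P1, at no more than 10.1 CPM in any library. Each window runs 5′ to 3′ on the gene's strand from 250 bases before to 50 bases after the start (RefSeq, GRCm38.p6). Capitals mark an E-box, the kind of motif that Atoh1, the factor that begins HC differentiation, binds. Letters searched were CAGCTG, which reads the same on both strands, and CAGATG, with its reverse complement CATCTG, and the motifs do not overlap.
Ctbp2, Ribeye start, chr7:133015198-133015497, minus strand: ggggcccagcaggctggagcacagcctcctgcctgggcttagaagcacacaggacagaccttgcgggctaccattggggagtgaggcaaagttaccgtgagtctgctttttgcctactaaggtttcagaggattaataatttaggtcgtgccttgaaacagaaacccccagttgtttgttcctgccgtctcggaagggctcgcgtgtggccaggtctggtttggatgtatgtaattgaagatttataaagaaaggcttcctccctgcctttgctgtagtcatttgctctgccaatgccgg
Slc17a8, upstream start, chr10:89621200-89621499, minus strand: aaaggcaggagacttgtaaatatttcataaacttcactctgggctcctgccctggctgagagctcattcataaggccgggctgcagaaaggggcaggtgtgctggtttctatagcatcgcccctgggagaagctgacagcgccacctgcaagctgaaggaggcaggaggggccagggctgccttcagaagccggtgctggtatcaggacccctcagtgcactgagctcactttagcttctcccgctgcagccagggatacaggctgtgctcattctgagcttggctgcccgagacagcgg
Slc17a8, internal start, chr10:89599766-89600065, minus strand: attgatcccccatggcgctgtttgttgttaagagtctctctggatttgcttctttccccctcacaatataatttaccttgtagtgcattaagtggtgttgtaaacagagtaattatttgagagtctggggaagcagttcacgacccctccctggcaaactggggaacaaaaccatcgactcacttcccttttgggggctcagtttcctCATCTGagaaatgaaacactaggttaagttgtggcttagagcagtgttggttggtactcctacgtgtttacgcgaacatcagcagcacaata
Cabp2, upstream start, chr19:4082238-4082537, plus strand: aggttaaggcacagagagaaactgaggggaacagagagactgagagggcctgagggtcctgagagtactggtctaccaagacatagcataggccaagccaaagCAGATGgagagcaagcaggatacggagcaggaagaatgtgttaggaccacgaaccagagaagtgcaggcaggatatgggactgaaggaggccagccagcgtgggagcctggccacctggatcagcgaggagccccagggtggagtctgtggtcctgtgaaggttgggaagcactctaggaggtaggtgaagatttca
CATCTG stood 42 bases before the internal Slc17a8 start, and CAGATG 147 bases before the upstream Cabp2 start. Neither motif was in the Ribeye start window, in the upstream Slc17a8 window or in the window of the second Cabp2 start (chr19:4083269-4083568, not printed). CAGCTG was in 16.3% and CAGATG in 17.2% of all 32851 windows of this length, and 30.6% held either. Of the 12 windows that cover 7 of the members, 7 held either (the other members are Otof, Rims2 and Nefl). These matches describe letters only.

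**Figure D1:**
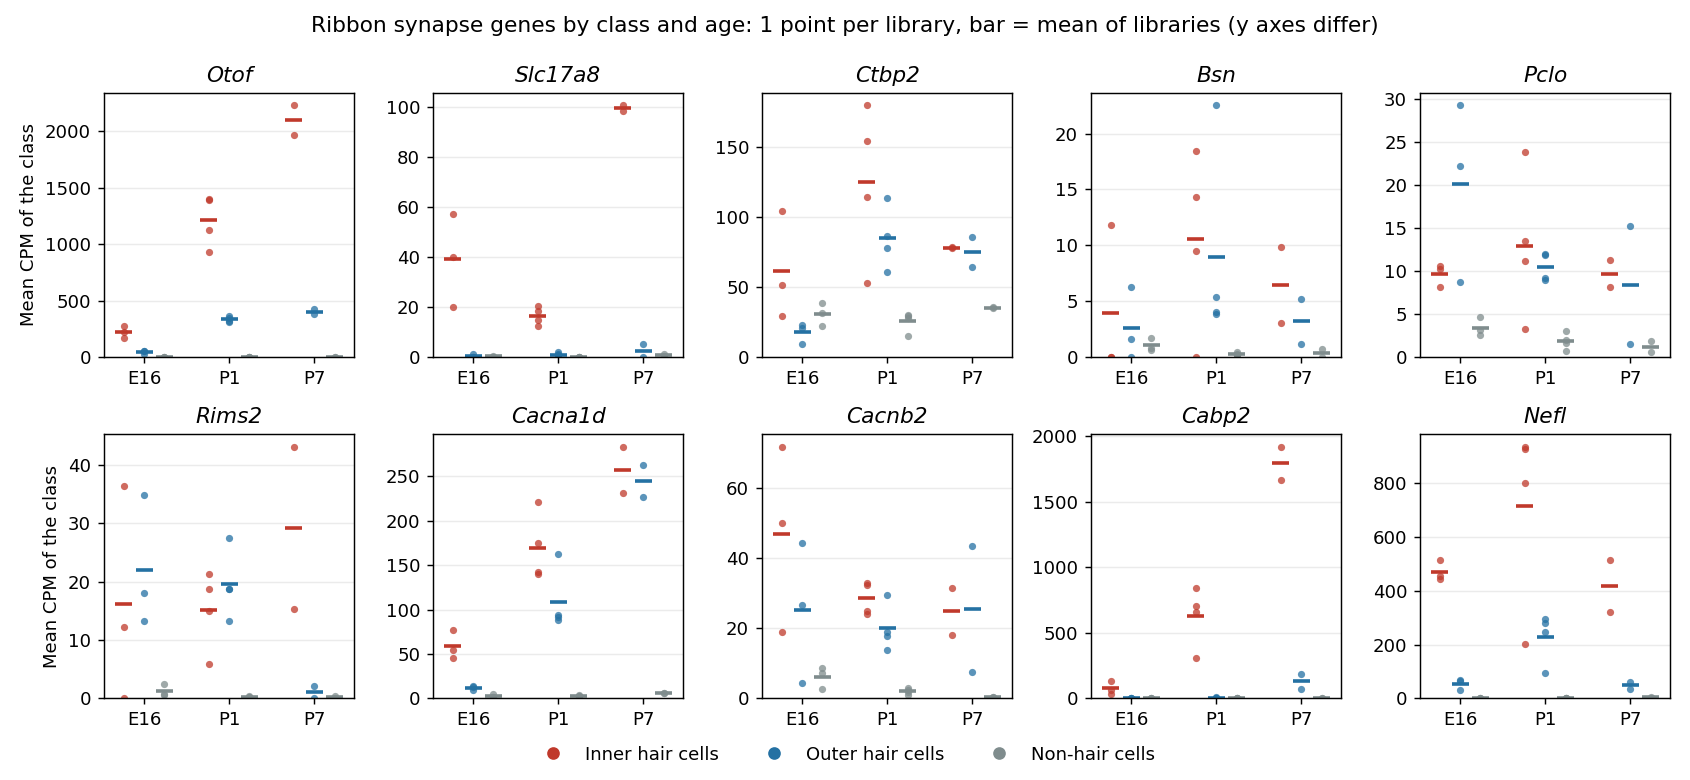
Mean CPM of the class (y axis, linear, from 0, a different scale in each panel) for the 10 genes at E16, P1 and P7 (x axis) in IHCs (red), OHCs (blue) and non-hair cells (grey). Each point is 1 library and each bar the mean of libraries; Otof, Slc17a8, Cabp2 and Nefl are higher in the IHCs than in the OHCs of every library, while Cacna1d and Ctbp2 of both types lie close together at P7.

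To ask whether the set marks HCs within the floor of the duct, all gated HCs were first compared with non-hair cells. A value is the mean CPM over the cells of a class in a library, and a change is given with its standard error (SE) on the log2(CPM + 10) scale, a scale that shrinks the changes of weakly expressed genes. Of the 10 genes, 6 reached the filter of a mean of 10 CPM in this comparison (Otof, Ctbp2, Cacna1d, Cacnb2, Cabp2 and Nefl), and Slc17a8, Bsn, Pclo and Rims2 did not. In HCs 5 of the 6 were higher at E16 (21.8% of the 9284 genes tested were), 6 of 6 at P1 (37.7%) and 6 of 6 at P7 (33.0%). With no filter, 8, 10 and 9 of the 10 were higher at the 3 ages, where 11.3%, 22.7% and 20.4% of all genes were. A gene that passes the filter through its HC level alone had to differ at some age. That holds for 5 of the 6 (Otof, Cacna1d, Cacnb2, Cabp2 and Nefl), which averaged at most 6.22 CPM in non-hair cells at any of these ages. Only Ctbp2 was over 10 CPM in non-hair cells too. The filtered counts are therefore no test of the set and are read beside the levels. Fewer transcripts in each cell and fewer cells with transcripts cannot be told apart in a class mean.

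Otof had the widest difference at P1 and P7. In HCs it measured 93.6, 73.0 and 87.7 CPM in the 3 E16 libraries, 430, 569, 545 and 411 CPM at P1, and 944 and 917 CPM at P7. Non-hair cells held 0.157 to 1.23 CPM at E16, 0.608 to 2.50 at P1 and 0.751 to 1.61 at P7, so that groups did not overlap at any age. The difference was 3.15 ± 0.15 (SE) on the log2 scale at E16, 5.46 ± 0.13 at P1 and 6.40 ± 0.19 at P7 (limma, adjusted p = 6.96e-11, 3.26e-15 and 1.83e-13). With no filter, which Otof passed only through its HC level, limma gave adjusted p = 1.01e-07, 1.82e-10 and 2.62e-09. Cacna1d, the pore-forming subunit of the ribbon's calcium channel, was higher in HCs by 1.57 ± 0.16 at E16, 3.33 ± 0.14 at P1 and 4.03 ± 0.20 at P7. Cacnb2, an auxiliary subunit of the channel, was higher by 1.29 ± 0.24, 1.36 ± 0.21 and 1.65 ± 0.30. Its E16 ranges overlapped, at 8.44 to 48.9 CPM in HCs and 2.62 to 8.81 in non-hair cells. At P7 the HC libraries were apart, at 10.7 and 41.0 CPM, on 53 UMIs. Cabp2, which modulates the channel, was higher by 1.24 ± 0.27, 3.52 ± 0.24 and 5.63 ± 0.33. Nefl, the light neurofilament chain, best known from axons, was higher by 3.90 ± 0.28, 4.85 ± 0.24 and 3.52 ± 0.34. On the mean of the deposited log values the E16 calls of Cabp2 and Cacna1d were lost (adjusted p = 0.618 and 0.0615), and that of Cabp2 also with a pseudocount of 50 (adjusted p = 0.127).

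Ctbp2 was the one member of the 6 that was not called in HCs at E16. There HCs held 32.4, 21.8 and 26.6 CPM and non-hair cells 31.4, 22.5 and 39.0 CPM, with a difference of -0.14 ± 0.15 (95% interval -0.45 to 0.17, adjusted p = 0.469). The groups overlapped at E16 and were apart later. At P1 the 4 HC values were 56.7, 93.7, 99.1 and 121 CPM, against 14.8 to 30.5 in non-hair cells (1.51 ± 0.13, adjusted p = 1.26e-08). At P7 they were 68.9 and 83.1 against 35.6 and 35.0 (0.92 ± 0.18, adjusted p = 0.000272).

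The 3 large proteins that organise the release site had few UMIs. Bassoon (Bsn), piccolo (Pclo) and the scaffold Rims2 gave 9 to 73, 19 to 76 and 17 to 131 UMIs over all HCs of an age. Bsn averaged 3.37 ± 1.93 CPM (SD, n = 3) in HCs at E16, 9.32 ± 9.06 (n = 4) at P1, with 22.7 in replicate 4 and 2.80 to 5.92 in the others, and 4.20 ± 0.37 (n = 2) at P7, and at most 1.71 in any non-hair library. It was higher in HCs at P1 with no filter (0.81 ± 0.17, adjusted p = 0.00224). At E16 (adjusted p = 0.367) and P7 (adjusted p = 0.165) the test did not call it. Pclo averaged 16.0 ± 6.3, 11.3 ± 3.1 and 9.67 ± 4.49 CPM in HCs against 3.44 ± 1.11, 1.85 ± 0.96 and 1.22 ± 0.86 in non-hair cells. Rims2 averaged 20.1 ± 2.6, 18.2 ± 3.8 and 9.75 ± 5.71 CPM against 1.25 ± 1.00, 0.270 ± 0.114 and 0.181 ± 0.256. Both were higher in HCs at every age with no filter, Pclo with a largest adjusted p of 0.00625 and Rims2 of 0.0017.

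IHCs were then compared with OHCs within libraries at each age. Of 9 genes tested (Bsn did not reach the filter), 6 were higher in IHCs at E16, where 2.83% of 9093 genes were, and 4 at P1 (1.91%) and at P7 (2.85%). None was called higher in OHCs by limma, also at an unadjusted p under 0.05, where at the adjusted threshold 2.79%, 2.23% and 2.73% of all genes were. With no filter, 5, 3 and 4 of the 10 were higher in IHCs, where 0.574%, 0.580% and 1.36% of 18804 genes were. Slc17a8 reached the filter through its IHC level alone and so had to differ. The median difference of the 9 genes was 1.64, 0.61 and 1.74 on the log2 scale, against -0.02, -0.04 and 0.00 over all genes tested. With the filter, Otof, Slc17a8, Cabp2 and Nefl were the genes called at every age. With no filter, Slc17a8 was not called at P1. Ctbp2 and Cacna1d were called at E16 alone, and whether their difference changed with age is tested below.

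**Figure D2:**
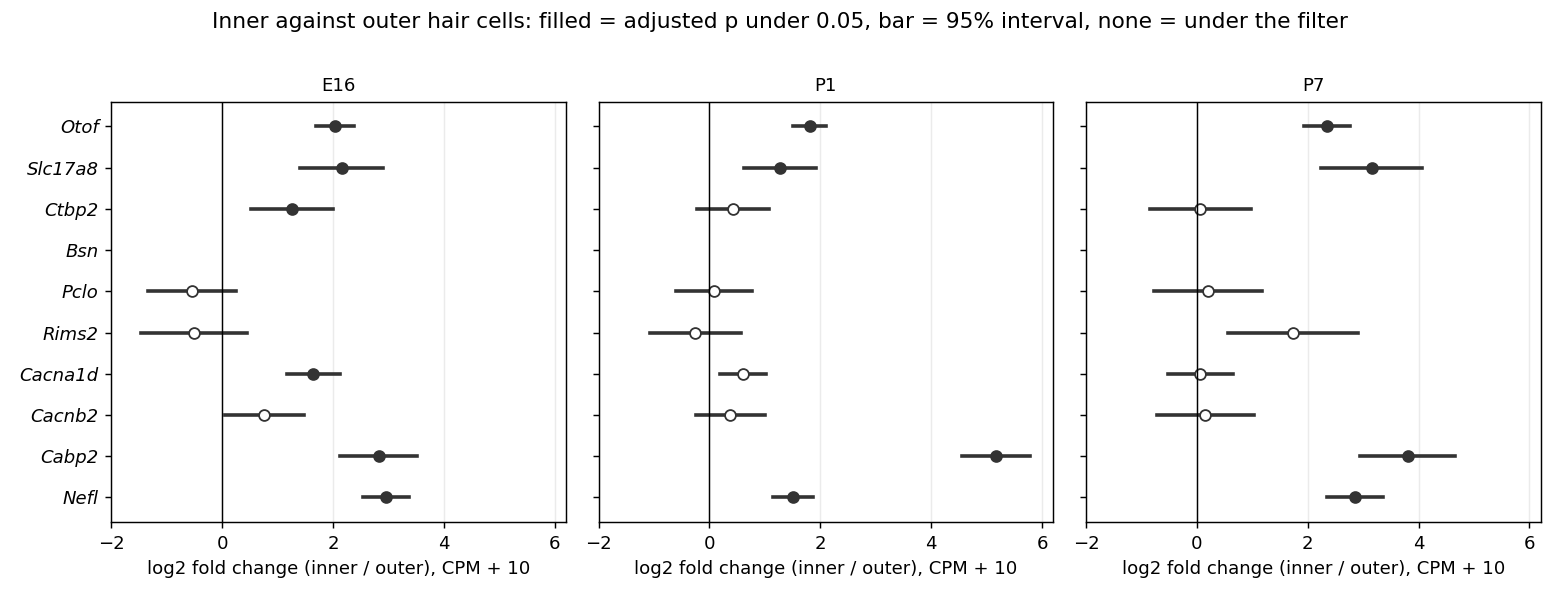
Log2 fold change of IHCs over OHCs on the log2(CPM + 10) scale (x axis, linear) for the tested genes (y axis) at E16, P1 and P7. Points are estimates, bars 95% intervals, and filled points have an adjusted p under 0.05; Cabp2 lies at 2.82, 5.17 and 3.80, and Cacna1d and Ctbp2 are at 0.06 at P7.

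Otof was higher in the IHCs of every library. IHCs measured 275, 221 and 172 CPM at E16, 936, 1394, 1401 and 1126 CPM at P1, and 1966 and 2230 CPM at P7. OHCs measured 55.3, 32.8 and 52.0 CPM at E16, 318, 366, 346 and 313 CPM at P1, and 427 and 379 CPM at P7. IHCs were higher by 2.04 ± 0.16, 1.81 ± 0.14 and 2.35 ± 0.20 on the log2 scale (adjusted p = 2.04e-07, 8.25e-08 and 3.06e-07). OHCs were far from lacking the gene: even at E16 they held more than the 1.23 CPM of the highest non-hair library. After each cell was thinned to 1500 UMIs, 27.3% of IHCs had an Otof UMI at E16, 72.1% at P1 and 92.4% at P7 (46.5%, 93.0% and 98.7% unthinned). In OHCs the shares were 5.82%, 36.5% and 38.5% (11.6%, 77.8% and 81.6% unthinned). The background in non-hair cells was 0.0409%, 0.172% and 0.194%. Exact 95% intervals at P7 ran from 84.2% to 97.2% in IHCs and from 31.4% to 46.1% in OHCs, and cover counting error only.

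Slc17a8, which loads glutamate into HC vesicles, was an IHC transcript of low abundance. IHCs measured 57.1, 20.2 and 40.2 CPM at E16, 18.6, 12.6, 20.5 and 15.0 CPM at P1, and 98.4 and 101 CPM at P7. OHCs held 0 to 1.42, 0 to 2.02 and 0 to 5.19 CPM, against 0 to 1.19 CPM in non-hair cells, and the IHC value was the higher in all 9 libraries. These values rest on 15, 24 and 56 UMIs in IHCs and 1, 6 and 3 in OHCs. Over all cells of an age, IHCs held 40.9 times the OHC level at E16 (95% counting interval 6.29 to 1722), 18.3 times at P1 (7.29 to 54.8) and 40.8 times at P7 (13.3 to 204). The fitted difference was 2.16 ± 0.36 at E16, 1.27 ± 0.31 at P1 and 3.15 ± 0.44 at P7 (adjusted p = 0.0012, 0.0197 and 0.000108). Since the filter favoured a difference, the limma fit with no filter is the fairer one. It gave adjusted p = 0.0186, 0.0979 and 0.00355, so that P1 was not called. With stricter type gates the E16 difference was 1.19 and was not called (adjusted p = 0.209). At P1 the call was lost in 10 of 22 alternatives, among them each of those without 1 P1 library, with the difference above 0 in all 22. After thinning, 2.33% of IHCs had a UMI at P1 and 12.7% at P7 (11.05% and 48.1% unthinned). Non-hair cells had it in 0.0157% and 0% (0.0313% and 0.291% unthinned; at the thinned depth, 0 of 3089 cells allows up to 0.119% of cells with a UMI by the exact interval).

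Cabp2, a calcium-binding protein that modulates the HC calcium channel, showed the widest gap of the set at P1 and P7 on the log2(CPM + 10) scale. By the ratio over all cells at P7, those of Slc17a8 (40.8) and Rims2 (35.0) were wider than that of Cabp2 (14.9). IHCs measured 133, 64.5 and 31.5 CPM at E16, 842, 701, 656 and 306 CPM at P1, and 1921 and 1668 CPM at P7. OHCs measured 0, 0 and 2.41 CPM at E16, 10.1, 5.82, 6.79 and 4.20 CPM at P1, and 189 and 73.6 CPM at P7. The P1 library with the lowest IHC level also had the lowest OHC level. IHCs were higher by 2.82 ± 0.33, 5.17 ± 0.29 and 3.80 ± 0.41 (adjusted p = 2.68e-05, 7.28e-10 and 6.67e-06). A single UMI stood behind the OHC value at E16, and the ratio over all cells was 81.8 there (95% counting interval 13.6 to 3338), 98.4 at P1 (71.1 to 140.1) and 14.9 at P7 (12.6 to 17.7). The E16 call was lost with stricter type gates (adjusted p = 0.074) and on the mean of the deposited log values (adjusted p = 0.284). Shares after thinning were 54.1% of IHCs and 0.843% of OHCs at P1 (83.7% and 4.10% unthinned), and 91.1% and 19.0% at P7 (98.7% and 48.6% unthinned). Non-hair cells had 0.125% and 0.227%. IHC marker RNA summed to 27.6 and 28.8 CPM in the P7 OHCs, against 2020 and 2175 CPM in IHCs, a sum that the gate limits, and its part in the Cabp2 value of OHCs was not tested.

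Nefl was higher in IHCs of every library as well. IHCs held 445, 455 and 514 CPM at E16, 936, 926, 803 and 204 CPM at P1, and 516 and 320 CPM at P7. OHCs held 30.2, 66.0 and 68.2 CPM at E16, 295, 245, 282 and 95.6 CPM at P1, and 61.7 and 36.3 CPM at P7. P1 replicate 4 was the lowest of its age in both types and did not reverse their order. The difference was 2.95 ± 0.20, 1.50 ± 0.17 and 2.85 ± 0.24 on the log2 scale (adjusted p = 2.08e-08, 1.4e-05 and 3.06e-07). With stricter type gates the P1 call was lost (adjusted p = 0.0859). Nefl is also a neuronal gene. Neuron markers, a list that shares Snap25, Nefh and Prph with the other synapse genes described below, summed to 426 to 505 CPM in IHCs, 391 to 670 in OHCs and 333 to 357 in non-hair cells at E16. The sums were 251 to 326, 292 to 359 and 701 to 922 CPM at P1, and 138 to 200.03, 157 to 165 and 484 to 673 CPM at P7. The list also holds Isl1, which made up the whole sum of E14 HCs (666 to 673 CPM), where the 6 others had no UMI. These sums are therefore no measure of neuronal RNA, and the part of Isl1 at the later ages was not tested. Of the list, Nefh averaged 14.8 ± 21.6 CPM (0 to 39.6, n = 3) in E16 IHCs, 9.21 ± 7.15 in E16 OHCs and 1.26 ± 0.54 in E16 non-hair cells, and had no UMI in the IHCs of P1 and P7. Prph had none in IHCs at any of the 3 ages. Every other gene of the list in the data of an age had UMIs in IHCs, save Scn1a at P7. The part of neuronal RNA in the Nefl values was not tested.

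For the calcium channel genes the types were closer. Cacna1d measured 54.5, 77.1 and 45.9 CPM in E16 IHCs and 9.03, 13.9 and 12.6 in E16 OHCs, which did not overlap (1.64 ± 0.23, adjusted p = 0.000189). The call was lost without HCs that hold markers of other cells (0.98, adjusted p = 0.0542) and on the mean of the deposited log values (adjusted p = 0.0987). At P1 it measured 140.0, 176, 142 and 221 in IHCs and 88.7, 93.5, 91.4 and 163 in OHCs, higher in IHCs in 4 of 4 libraries but short of the threshold (0.61 ± 0.20, adjusted p = 0.109). It was past the threshold in 4 of 22 alternatives, among them those without E16 replicate 1 (adjusted p = 0.0282) or 3 (adjusted p = 0.0493). At P7 the values were 231 and 284 against 227 and 263, with a difference of 0.06 (95% interval -0.52 to 0.65). Cacnb2 measured 50.1, 71.9 and 18.9 in E16 IHCs against 26.7, 44.5 and 4.54 in OHCs of the same libraries, a difference of 0.76 ± 0.34 that did not pass (adjusted p = 0.194). Its interval was -0.24 to 1.00 at P1 and -0.72 to 1.03 at P7.

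Ctbp2 measured 105, 29.5 and 51.3 CPM in E16 IHCs and 9.71, 23.3 and 20.7 in OHCs. The groups did not overlap, yet the call was at the limit (1.26 ± 0.35, adjusted p = 0.0427) and was lost in 18 of 22 alternatives, with the difference above 0 in all 22. Of the single libraries, leaving out E16 replicate 1 or 3 or any one of P1 or P7 lost it (adjusted p of 0.277 without E16 replicate 1, where the difference was 0.62). At P1 the ranges of 52.9 to 181 in IHCs and 61.2 to 114 in OHCs overlapped, and at P7 78.5 and 77.8 lay between 64.2 and 85.8 (95% interval of the difference -0.84 to 0.97). Pclo had intervals of -1.34 to 0.25, -0.60 to 0.77 and -0.77 to 1.17 at the 3 ages. Rims2 overlapped at E16 and P1. At P7 Rims2 had 43.1 and 15.4 CPM in IHCs and 0 and 2.08 in OHCs, or 16 UMIs against 1, a ratio of 35.0 (95% counting interval 5.43 to 1466) that did not pass the test over libraries (1.74 ± 0.56, adjusted p = 0.0814). It passed in 4 of 22 alternatives, 3 of them without E16 replicate 1, 2 or 3 (adjusted p = 0.0229, 0.0335 and 0.0494). Bsn was under the filter, with 2, 12 and 5 UMIs in IHCs and 2, 54 and 6 in OHCs, and no difference was detectable at this depth.

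Whether the IHC to OHC gap changed with age was tested directly. For P1 against E16, 2 of the 9 genes were called, 1 in each direction (0.209% of all genes were called higher and 0.308% lower). The Cabp2 gap grew by 2.35 ± 0.44 (adjusted p = 0.017), and the Nefl gap fell by 1.45 on the log2 scale (SE 0.26, adjusted p = 0.015). For P7 against P1 only the Nefl gap was called, and it grew by 1.35 ± 0.30 (adjusted p = 0.0163, 1.31% of all genes called higher). The growth of the Cabp2 gap depends on the pseudocount, since 1 UMI stands behind its OHC level at E16: with a pseudocount of 1 it was 0.85 (adjusted p = 0.648), and the counting intervals of the ratios at E16 and P1, given above, overlapped. None of the 3 calls held throughout: that of Cabp2 was lost in 8 of 22 alternatives, and those of Nefl in 7 and 10, each including the fit without P1 replicate 3 (adjusted p = 0.0641 for Cabp2, and 0.0575 and 0.063 for Nefl). The Cabp2 call was also lost without P1 replicate 1 or 2 (adjusted p = 0.0962 and 0.0942). Without P1 replicate 4 both Nefl calls were lost (adjusted p = 0.0616 and 0.0569), as was the first without P1 replicate 1 (adjusted p = 0.0754) and the second without P7 replicate 4 or 5 (adjusted p = 0.216 and 0.207). The Ctbp2 gap changed by -0.84 ± 0.47 from E16 to P1 (adjusted p = 0.463), the Cacna1d gap by -1.03 ± 0.30 from E16 to P1 (adjusted p = 0.135), and the Slc17a8 gap by 1.88 ± 0.54 from P1 to P7 (adjusted p = 0.0773), none past the threshold, although the change for Slc17a8 passed in 4 of 22 alternatives. From P1 to P7 the Cabp2 gap changed by -1.37 ± 0.50 (adjusted p = 0.226) and the Rims2 gap by 1.99 ± 0.68 (adjusted p = 0.175), not past it either. For Cabp2 the same change was called without E16 replicate 1 (adjusted p = 0.0335), while on the mean of the deposited log values its direction turned (0.85, adjusted p = 0.0212). On those log values the Rims2 change was called (0.26, adjusted p = 0.0432).

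The change with age was then followed within each type. Libraries of different ages were separate collections, so age and collection cannot be told apart. From E16 to P1, 3 of 9 tested genes rose in IHCs (4.76% of 8999 genes did) and 4 of 8 in OHCs (9.91% of 9019). From P1 to P7, 2 of 9 rose in IHCs (1.37%), and in OHCs 2 of 8 rose (7.09%) and 2 fell (10.4%). Among those in OHCs, Cabp2 (a rise) and Rims2 (a fall) reached the filter only through ages where they were high. No gene of the set was called lower in IHCs in either step by limma, also at an unadjusted p under 0.05, and 2.98% and 2.29% of all genes were at the adjusted threshold.

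**Figure D3:**
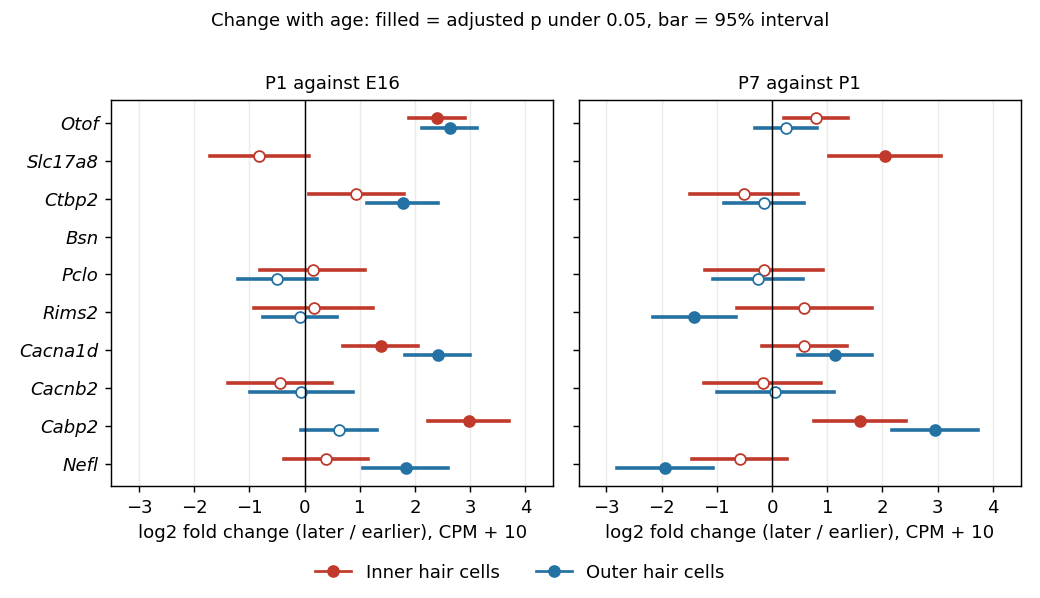
Log2 fold change of the later over the earlier age on the log2(CPM + 10) scale (x axis) within IHCs (red) and OHCs (blue) for the tested genes (y axis), P1 against E16 on the left and P7 against P1 on the right. Bars are 95% intervals and filled points have an adjusted p under 0.05; Otof is filled for both types on the left, and on the right Nefl and Rims2 lie below 0 in OHCs.

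Otof rose in both types between E16 and P1, by 2.40 ± 0.25 in IHCs and 2.63 ± 0.24 in OHCs (adjusted p = 6.28e-07 and 1.83e-06). From P1 to P7 its estimates were 0.80 ± 0.28 (adjusted p = 0.134) and 0.26 ± 0.27 (adjusted p = 0.573), neither past the threshold, although the P7 IHC libraries (1966 and 2230) lay above the highest P1 library (1401). Cacna1d rose from E16 to P1 by 1.38 ± 0.33 in IHCs and 2.41 ± 0.28 in OHCs (adjusted p = 0.0091 and 2.73e-05). With stricter type gates the IHC step was 0.98 and was not called (adjusted p = 0.278). In OHCs it rose again by P7, by 1.14 ± 0.32 (adjusted p = 0.0182), a call lost in 7 of 22 alternatives, among them those without P1 replicate 2 or 3 and without P7 replicate 4 or 5 (adjusted p = 0.0558, 0.0594, 0.0998 and 0.197). Cabp2 rose in IHCs at both steps, by 2.97 ± 0.36 and 1.59 ± 0.41 (adjusted p = 4.32e-06 and 0.0236), the second call being lost in 9 of 22, among them those without P1 replicate 3 or 4 and without P7 replicate 4 or 5 (adjusted p = 0.0518, 0.0731, 0.307 and 0.251). In OHCs Cabp2 lay at 4.20 to 10.1 CPM at P1 (0.63 ± 0.33 from E16, adjusted p = 0.212). With a pseudocount of 1 that step was 2.31 and was called (adjusted p = 0.043), and the ratio over all OHCs, 38 UMIs against 1, was 7.04 (95% counting interval 1.19 to 285). Cabp2 in OHCs then rose by 2.96 ± 0.37 from P1 to P7 (adjusted p = 2.08e-05), although it reached the filter in OHCs only through its P7 level and so had to differ.

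Ctbp2 rose in OHCs from E16 to P1, by 1.78 ± 0.30 (adjusted p = 0.000798), and in IHCs its estimate of 0.94 ± 0.42 did not pass (adjusted p = 0.177). Slc17a8 in IHCs averaged 39.2 ± 18.5 CPM (SD, n = 3) at E16, 16.7 ± 3.5 (n = 4) at P1 and 99.6 ± 1.6 (n = 2) at P7. Its step from E16 to P1 was -0.82 ± 0.43 (adjusted p = 0.263) and its rise from P1 to P7 2.05 ± 0.49 (adjusted p = 0.0153). The rise was lost in 6 of 22 alternatives, and without P7 replicate 4 or 5 it was not called (adjusted p = 0.197 and 0.256); the lone P7 library is then assumed to vary like the others. Rims2 reached the filter in OHCs only through its E16 and P1 levels (22.0 and 19.6 CPM on average), so the filter favoured a fall to P7. In OHCs it fell from 13.3 to 27.5 CPM at P1 to 0 and 2.08 at P7. The fall was 1.41 on the log2 scale (SE 0.36, adjusted p = 0.0102, and 0.0378 with no filter). Over all OHCs that was 107 UMIs at P1 against 1 at P7, a ratio of 23.9 (95% counting interval 4.20 to 953), and the call was lost without P7 replicate 4 (adjusted p = 0.136) or 5 (adjusted p = 0.0767).

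Nefl rose and fell in OHCs. It rose by 1.83 ± 0.37 from E16 to P1 (adjusted p = 0.00292) and fell by 1.94 from P1 to P7 (SE 0.41, adjusted p = 0.00293); the P7 level (49.0 ± 17.9 CPM, n = 2) overlapped that of E16 (54.8 ± 21.4, n = 3). The rise was not called when libraries were weighted by cells (adjusted p = 0.0574), nor was the fall without P7 replicate 5 (adjusted p = 0.0975) or with stricter type gates (adjusted p = 0.0886). In IHCs the steps of 0.38 ± 0.37 and -0.59 ± 0.42 were not called (adjusted p = 0.586 and 0.603), which rests on 1 library. Without P1 replicate 4 the steps were 0.90 (adjusted p = 0.0387) and -1.10 (adjusted p = 0.0311). Pclo and Cacnb2 were called in no step of either type.

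OHCs at P1 are of mixed maturity, and the early ones are known for transient Insm1 and Neurod6. Among P1 OHCs, 479 had a UMI of either gene, both of which are among the OHC gate genes, and 351 had none. Those 351 had to show another gate gene to count as OHCs. Otof averaged 271 ± 27 CPM (SD, n = 4) in cells with such a UMI and 421 ± 56 in cells without, and was higher without in 4 of 4 libraries. Cacna1d (86.7 ± 35.1 against 139 ± 49) and Ctbp2 (74.1 ± 25.9 against 97.7 ± 23.98) followed the same order in 4 of 4 libraries. Cabp2 ran the other way, at 22.6, 8.01, 9.08 and 6.64 CPM with the UMI and 2.998, 2.88, 2.05 and 0 without. Slc17a8 shared that order, at 1.60 ± 1.34 CPM with the UMI and 0 without. These values rest on 38 UMIs of Cabp2 and 6 of Slc17a8 over all P1 OHCs. Nefl, at 238 ± 89 against 221 ± 103, was higher without the UMI in 1 library. Rims2 was higher without it in 3 of 4 libraries, Bsn and Pclo in 2, and Cacnb2 in 1. These values are a description without a test. Cells with and without the UMI had like depths, with medians of 6533 and 6740 UMIs.

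**Figure D4:**
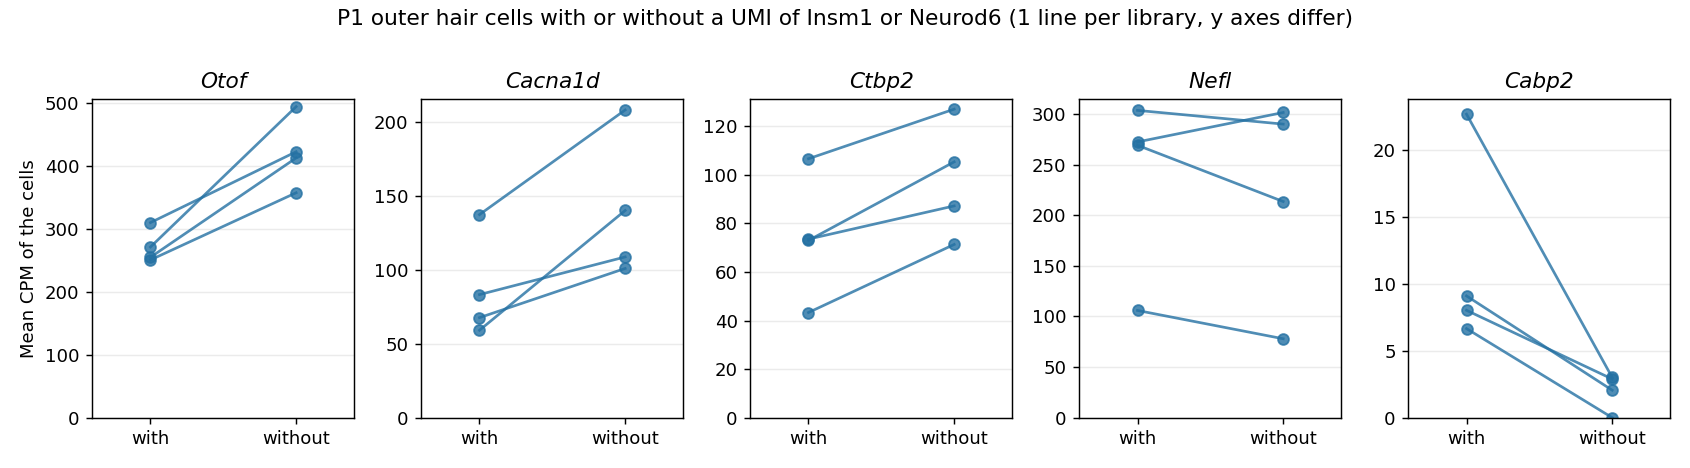
Mean CPM (y axis, linear, from 0, a different scale in each panel) of 5 genes in P1 OHCs with or without a UMI of Insm1 or Neurod6 (x axis). Each line joins both groups of 1 library; Otof, Cacna1d and Ctbp2 are higher without the UMI in all 4 libraries, and Cabp2 is lower.

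Other synapse genes, a list of 57 in 5 groups, gave the wider setting. Of the 32 that reached the filter, 21 were higher and 2 lower in E16 HCs, 27 higher and 2 lower in P1 HCs, and 19 higher and 7 lower in P7 HCs. Of all genes tested, 21.8%, 37.7% and 33.0% were higher and 22.0%, 28.3% and 28.3% lower. Listed genes that are low in non-hair cells passed this filter only through their HC level, and no count was made without it. The median difference of the 32 was 0.66, 1.38 and 0.85 on the log2 scale, against -0.01, 0.10 and 0.07 over all genes. Fusion machinery had 8, 9 and 6 of 11 genes higher and 1, 0 and 2 lower, and scaffold and priming genes 5, 7 and 6 of 8 higher and 0, 1 and 1 lower. Vesicle proteins and transporters had 6, 8 and 4 of 9 higher and 0, 0 and 3 lower, with a median difference of 0.16 at P7. Of 3 channel and sensor genes 1, 2 and 2 were higher, and Cacnb3, a channel subunit, was lower at each age. Nefm, the partner chain of Nefl, had the largest difference of the list at E16 and P1, 4.31 ± 0.20 and 5.62 ± 0.17 (adjusted p = 3.41e-11 and 5.22e-14). Syt7, a calcium sensor of slow vesicle release, followed with 3.42 ± 0.20 and 3.04 ± 0.18. At P7 the liprins Ppfia3 and Ppfia4 were higher in HCs by 3.47 ± 0.26 and 3.10 ± 0.23, and Nefm by 3.25 ± 0.24. The vesicle calcium sensor Syt1 was lower at P7, by -1.51 ± 0.30. Between the HC types, of 34 tested, 1, 3 and 3 were higher in IHCs and 0, 1 and 1 higher in OHCs at E16, P1 and P7, where 2.83%, 1.91% and 2.85% of all genes were higher in IHCs and 2.79%, 2.23% and 2.73% in OHCs. The E16 count in IHCs and the counts in OHCs lay near those shares. Syt2 was higher in IHCs by 1.89 ± 0.36 at P1 and 2.26 ± 0.50 at P7 (adjusted p = 0.00236 and 0.00877), and Cacna2d2, a channel subunit, by 1.98 ± 0.43 at P7. Nefm was higher in IHCs by 1.21 ± 0.18 at E16 and 0.99 ± 0.22 at P7. Ina, also listed among the neurofilaments, was lower in P1 IHCs (-1.18 ± 0.31, adjusted p = 0.0296). Napa, which helps to recycle the fusion machinery, was lower in P7 IHCs (-1.10 ± 0.28, adjusted p = 0.0207).

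Patterns most like those of Otof, Slc17a8 and Cabp2 were sought over 27 values, the IHC, OHC and non-hair means of 9 libraries, among 9334 genes. Gate genes and members were left out of the ranking, so any closer gene among them is not listed. These correlations describe points that share libraries and classes. Otof ran most closely with Xirp2 (Pearson r = 0.971), Camk2b (0.970), Tmem183a (0.969), Calb2 (0.968) and Apba1 (0.964). Calb2, the calcium buffer calretinin, went from 164 ± 34 CPM in IHCs at E16 to 1846 ± 681 at P1 and 3978 ± 721 at P7, and in OHCs from 32.2 ± 23.2 to 902 ± 453 and 1613 ± 492. Cabp2 ran most closely with Kcp (r = 0.940), Bcas3 (0.930), Fbxw4 (0.9285), Pitpnm1 (0.910) and Endod1 (0.908). Kcp measured 391 ± 63 CPM in IHCs and 31.6 ± 6.0 in OHCs at P1, and 629 ± 87 against 423 ± 2 at P7. Slc17a8 had looser neighbours, with Fbxw4 at 0.803, Ralyl at 0.7975, Bcas3 at 0.785, Slc34a3 at 0.781 and Reep6 at 0.779.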

How the data were processed

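Single-cell RNA was captured from cochlear duct floors with 10x Chromium 3′ chemistry. The authors' notes name Cell Ranger 2.1.1, Seurat 2.0 and mm10. The deposited values are natural logs, ln(1 + 10000 × the fraction of a cell's UMIs from the gene), with 1 table per age. They were turned back into counts per 1000000 UMIs (CPM), and whole UMIs were recovered within 2%. All deposited cells were kept and no doublet caller was run. Median depth per cell was 2478 to 2750 UMIs at E16, 3831.5 to 5647.5 at P1 (lowest in replicate 4) and 4510 to 4849.5 at P7. Libraries of an age shared 5 to 27 barcodes.

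Mean CPM per class and library was tested on log2(CPM + 10) with limma 3.58.1 (R 4.3.3, mean trend) in 9 libraries, over genes of at least 10 CPM on average, with Benjamini-Hochberg adjustment over all genes tested and a threshold of 0.05. Library was a block where classes were compared. Whole-table fits were also run on simulated data with the same depth in all cells and the same dispersion for all genes. That setting is unlike the few UMIs of some members, so it is no check of their calls. The named genes are the 10 members, up to 3 rises and 3 falls of the other synapse genes per comparison of classes, and the 5 genes most like Otof, Slc17a8 and Cabp2. Gate genes and members were left out of those 5. Members and lists were chosen with earlier results of these data known. Intervals of shares and ratios are exact 95% intervals for counting error only.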

Additional observations from a re-analysis of the deposited data

Results flagged for a closer look

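In 6 of the 40 groups of 4 P1 libraries examined, 1 library lay far from the others, and in 5 of these it was replicate 4. The groups are not separate, since all HCs include the OHCs and Bsn and Cacna1d were counted in both. For a single group, chance gives such a library in about 1 of 20. Bsn measured 22.7 CPM in its HCs and 22.5 CPM in its OHCs, against 2.80 to 5.92 and 3.85 to 5.40 in the other P1 libraries. Cacna1d measured 173 CPM in its HCs and 163 CPM in its OHCs, against 96.6 to 108 and 88.7 to 93.5. Nefl was low in its HCs, at 109 CPM against 385 to 415. The replicate had the lowest median depth of its age, 3831.5 UMIs per cell, whose part in these values was not tested. In P1 replicate 1, Ctbp2 measured 14.8 CPM in non-hair cells, against 28.3 to 30.5 in the others.

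The gap between IHCs and OHCs differed between ages for 2 genes by a test of the difference itself (limma). For Cabp2 the gap was wider at P1 than at E16 by 2.35 on the log2(CPM + 10) scale, but by 0.85 (adjusted p = 0.648) with a pseudocount of 1, and the call was lost in 8 of 22 alternatives. The ratios over all cells were 81.8 (95% counting interval 13.6 to 3338) at E16 and 98.4 (71.1 to 140.1) at P1, with intervals that overlapped. For Nefl the change was -1.45 from E16 to P1 and 1.35 from P1 to P7, calls lost in 7 and 10 of 22 alternatives.

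The E14 libraries entered no comparison, and 47 of their cells passed the HC gate. In these cells Nefl had 16 UMIs, or 43.0 per 1000000 (95% Poisson interval 24.6 to 69.8), against 2.74 in non-hair cells. Otof had 4 UMIs, or 10.7 per 1000000 (2.93 to 27.5), all in replicate 1, and 0 UMIs in 5174 non-hair cells (upper limit 0.153). Bsn and Rims2 had 3 UMIs each, or 8.06 per 1000000 (1.66 to 23.6), against 1.08 (upper limit 1.58) and 0.416 (upper limit 0.765). The margin of Bsn was thus narrow, and the UMIs of Rims2 were all in replicate 2. The other 4 genes of the E14 table were not above non-hair cells by their intervals: Ctbp2 had 86.0 per 1000000 against 64.1, Cacna1d 5.37 against 4.57, Cacnb2 2.69 against 3.24, and Pclo 0 (upper limit 9.91) against 3.28. These intervals cover counting error only. The share of all E14 genes above non-hair cells by this rule was not counted, so the number of members above is no result about the set.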

How the results depend on the processing

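Members called were counted again under up to 22 alternatives. The counts for IHCs against OHCs at P7, for P1 against E16 in IHCs and in OHCs, and for HCs at P7 stayed within 1.5 times throughout. With no filter, 8 and 10 members were called in HCs at E16 and P1, 0 for the change of the IHC to OHC gap in either step and 1 in IHCs from P1 to P7. On the mean of the deposited log values, 3 were called in HCs at E16, 3 between IHCs and OHCs at E16, and 4 for the change of the gap from P1 to P7; there Cabp2 was reversed at 0.85 for P7 against P1 and Otof at 0.78 for P1 against E16. Stricter type gates left 39, 72 and 43 IHCs and gave 3 and 2 between IHCs and OHCs at E16 and P1, 0 for both changes of the gap, 0 in IHCs and 2 in OHCs from P1 to P7. A pseudocount of 1, and leaving out HCs with markers of other cells, each gave 1 for the change of the gap from E16 to P1 and 1 in IHCs from P1 to P7. Without large cells the change of the gap from P1 to P7 and the IHC step each gave 0. Weighting by cells gave 2 for that change of the gap. Without single libraries, counts ran from 0 to 2 and 0 to 3 for the changes of the gap, 0 to 2 in IHCs and 1 to 4 in OHCs from P1 to P7. An OHC gate of 8 genes, chosen after seeing the data, moved no count by over 1.5 times. Beyond the shares given above for fits with no filter, no share of all genes called was worked out for the alternatives. The counts thus show only how calls of members shift, and the cause of these shifts was not tested.

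Replicate numbers did not pair libraries of different ages: deviations from the age means correlated at -0.0897 to 0.0579. With the replicate block, 0 members were called in IHCs and 1 in OHCs from P1 to P7; there the OHC steps of Nefl and Cacna1d were -0.56 and 0.45 (adjusted p = 0.683 and 0.738), and the IHC step of Cacna1d from E16 to P1 was 1.25 (adjusted p = 0.0529). With no replicate block for the library, 0 were called for both changes of the gap. Bsn, Pclo, Rims2 and Slc17a8 rest on few UMIs, which limits what could be detected.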
